A study of Mus musculus with 4 samples.

Results

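Eukaryotic cells keep a large store of calcium in the endoplasmic reticulum (ER). SERCA pumps fill it, inositol trisphosphate (IP3) receptors let calcium out after a hormone or growth factor signal, and STIM sensors in the ER membrane open ORAI channels of the plasma membrane to refill it. PMCA pumps of the plasma membrane push calcium out of the cell. Calumenin is itself a calcium-binding protein of the ER and secretory pathway, and in mouse heart it is known to bind the SERCA pump encoded by Atp2a2. The 10 genes described here were taken by name from the deposited gene table: the SERCA genes Atp2a2 and Atp2a3, the PMCA genes Atp2b1 and Atp2b4, the IP3 receptor genes Itpr1, Itpr2 and Itpr3, the sensor genes Stim1 and Stim2, and the channel gene Orai1. They are 10 of 54532 rows, and all 10 were among the 11885 genes tested.

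RNA was sequenced from mouse cells labelled as primary lung fibroblasts, as 2 libraries with the genotype label Calu-KO and 2 with the label Calu-WT, called WT. The titles of the Calu-KO libraries read KD where the genotype says KO, and the titles of the WT libraries read NC. The sources used here do not give the targeting method, the animals' age or strain, or whether libraries come from separate animals or cultures. A p-value below therefore speaks only of the spread between libraries, and that spread may be technical. The comparison asked how genes that fill, empty and refill the calcium store stand in cells with little Calu RNA.

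Calu stood at 14.9 and 10.9 FPKM (read fragments scaled to gene length and to a size set for each library) in Calu-KO replicates 1 and 2, against 178 and 177 FPKM in WT replicates 1 and 2 (log2 change -3.70 ± 0.17, SE; adjusted p = 0.00493, limma over all tested genes). Against the label, 4 of 10 fibroblast markers stayed under 1 FPKM in every library: Dcn and Lum had no read, Fap had 1 read in Calu-KO replicate 1 only, and Thy1 had 2 to 6 reads a library. Col1a1, Col1a2, Col3a1, Pdgfra, Vim and S100a4 were above 8 FPKM in all, and of these Col3a1 fell (11.9 and 12.2 FPKM in Calu-KO, 38.9 and 39.4 FPKM in WT). Markers of endothelium, heart and skeletal muscle were under 1 FPKM in every library. The summed macrophage and blood cell markers were lower in Calu-KO (4.37 and 4.12 FPKM) than in WT (11.3 and 12.4 FPKM), most of it Lyz2, which fell, and Cd68. The defining leukocyte gene Ptprc had at most 1 read in any library. Of 6 epithelial markers Krt8 fell, and Epcam, Cdh1 and Krt18 had 0 to 3 reads a library. Sftpc had no read. Scgb1a1 had 3 and 0 reads in Calu-KO and 3 and 8 in WT, the last of these 1.01 FPKM. Of 6 smooth muscle and pericyte markers Des fell and Mcam rose, Cspg4 overlapped (30.1 and 45.2 FPKM in Calu-KO, 36.7 and 34.5 FPKM in WT), Rgs5 had no read, and Acta2 and Myh11 had 0 to 4 reads. Of 4 mesothelial markers Msln had 25.2 and 22.1 FPKM in Calu-KO, against 32.99 and 30.4 FPKM in WT, and did not pass. The others were near 0: Wt1 had 0 to 2 reads a library, Upk3b 0 to 3 and Krt19 1 to 11. The part of these markers in the results was not tested. Recovered reads were 15635448 to 16510048 per library. The library sizes implied by the FPKM values differed from these. They were 1.69e+07 and 1.46e+07 in Calu-KO replicates 1 and 2, and 1.64e+07 and 1.66e+07 in WT replicates 1 and 2. Only in Calu-KO replicate 2 did the implied size lie below the recovered reads (16038560), which raises its FPKM relative to the other libraries. The share of reads from mitochondrial genes was highest in Calu-KO replicate 2, at 4.0%, with the rest between 2.43% and 2.53%.

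None of the 10 genes passed the test between Calu-KO and WT, against 2.77% of all tested genes (0.942% higher and 1.83% lower in Calu-KO; limma, Benjamini-Hochberg threshold 0.05). Not one of them reached an unadjusted limma p under 0.05 either, as 2944 of the 11885 tested genes did. Stim2 came nearest at 0.0501, and Itpr1, Itpr2, Orai1 and Atp2b4 lay between 0.081 and 0.086. None passed with limma's voom weights on the reads recovered from the FPKM values, where 6.98% of all tested genes did. The SERCA pumps, IP3 receptors, sensors and PMCA pumps each had 1 dominant gene, in Calu-KO and in WT alike. These were Atp2a2, Itpr3, Stim2 and Atp2b1. The ORAI channels differed: Orai1 was 19.1% and 21.3% of the ORAI sum in Calu-KO, against 25.4% and 21.3% in WT. It lay below Orai2 and Orai3 in every library. The groups did not overlap for 5 genes. Stim2, Itpr1 and Atp2b4 were higher in both Calu-KO libraries than in either WT library, and Itpr2 and Orai1 lower. With 2 libraries a group such a gap is common: 61.6% of all tested genes had one, 32% higher and 29.7% lower in Calu-KO. The 10 genes had a median log2 change of 0.11, against 0.01 over all tested genes. In bulk RNA, fewer cells of a type and less RNA per cell cannot be told apart.

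**Figure D1:**
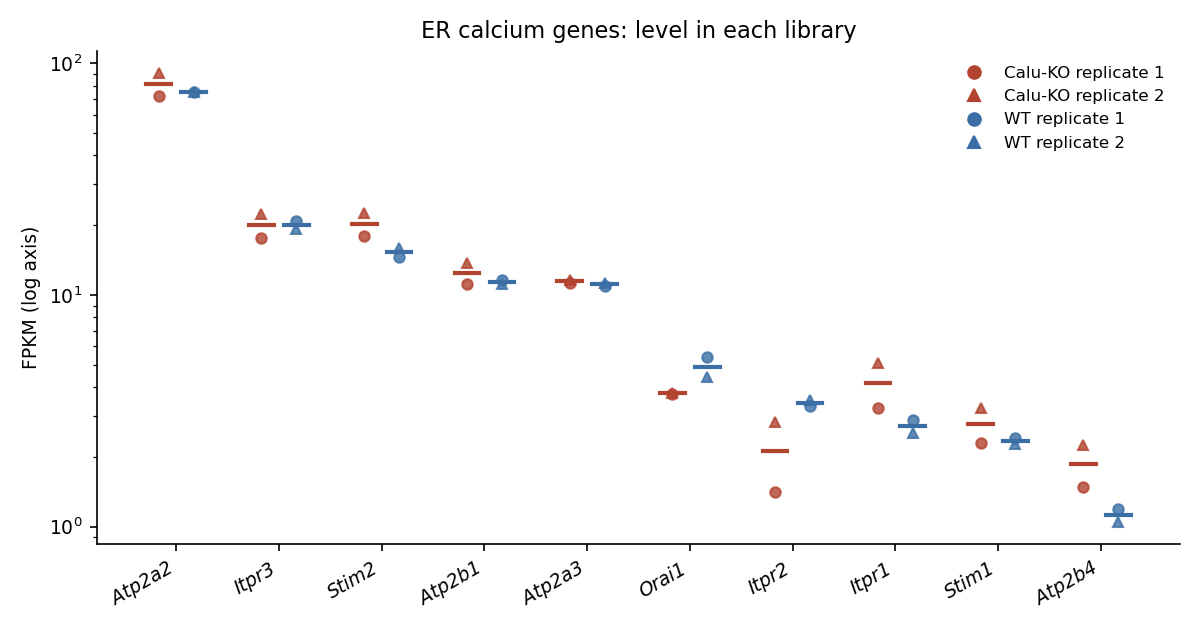
FPKM (log axis) of each of the 10 genes in the 2 Calu-KO and 2 WT libraries, with the mean of each group as a bar and genes ordered by their WT mean. Atp2a2 stands above all others, and for most genes the 2 WT libraries lie closer together than the 2 Calu-KO libraries.

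Levels per length ran from 81.2 ± 13.2 FPKM for Atp2a2 to 1.87 ± 0.537 FPKM for Atp2b4 in Calu-KO, and from 74.97 ± 0.0308 to 1.12 ± 0.0989 FPKM for the same 2 genes in WT (SD, n = 2 each). In Calu-KO, Stim2 (20.2 FPKM) and Itpr3 (19.97 FPKM) followed, then Atp2b1 (12.4 FPKM) and Atp2a3 (11.4 FPKM), and the order within each of these pairs was within the spread of the libraries. Below them in Calu-KO came Itpr1, Orai1, Stim1, Itpr2 and Atp2b4. Of these Itpr1 overlapped with Orai1 and with Stim1, Stim1 with Itpr2, and Itpr2 with Atp2b4. In WT the order was Atp2a2, Itpr3, Stim2, Atp2b1, Atp2a3, Orai1, Itpr2, Itpr1, Stim1 and Atp2b4, and only the neighbours Atp2b1 and Atp2a3 overlapped. The deposited length is longer than the longest coding transcript of GENCODE M21 for all of them but Itpr3. With the transcript length instead, Atp2b1 was second in both groups (26.5 FPKM in Calu-KO and 24.2 FPKM in WT), and in WT Itpr1 (5.03 FPKM) lay above Itpr2 (4.33 FPKM). Ratios between groups do not depend on this choice.

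A pump gene, Atp2a2, came first in level. Atp2a2, which encodes SERCA2 (ENSMUSG00000029467, chr5:122453513-122502225, minus strand, mm10), had 71.9 and 90.6 FPKM in Calu-KO replicates 1 and 2, against 74.95 and 74.99 FPKM in WT replicates 1 and 2. The Calu-KO libraries lay on either side of the WT pair, and the log2 change was 0.10 ± 0.15 with a 95% interval of -0.27 to 0.48 (adjusted p = 0.672). Its muscle and housekeeping splice forms are not separated in a gene-level table. Atp2a3, which encodes SERCA3 (chr11:72961169-72993044), had 11.3 and 11.6 FPKM in Calu-KO and 11.0 and 11.3 FPKM in WT. This was the narrowest interval of the 10 genes, with a log2 change of 0.04 ± 0.11 between -0.23 and 0.31 (adjusted p = 0.840). The muscle SERCA gene Atp2a1 had at most 10 reads in any library. Atp2a2 made up 86.4% and 88.6% of the summed SERCA level in Calu-KO, against 87.1% and 86.8% in WT.

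The PMCA pumps lower calcium by expelling it rather than storing it. Atp2b1, the widely expressed PMCA1 (chr10:98914406-99026143), had 11.1 and 13.8 FPKM in Calu-KO, against 11.6 and 11.1 FPKM in WT. The groups overlapped (log2 change 0.12 ± 0.14, adjusted p = 0.618). Atp2b4, which encodes PMCA4 (chr1:133699457-133801041), had 1.49 and 2.25 FPKM in Calu-KO, against 1.19 and 1.05 FPKM in WT. These values stand on 308 and 402 reads in Calu-KO and on 238 and 213 reads in WT. Both Calu-KO libraries were above both WT libraries, but the log2 change of 0.43 ± 0.20 did not pass (adjusted p = 0.256). Atp2b4 accounted for 11.8% and 13.9% of the PMCA sum in Calu-KO, against 9.28% and 8.60% in WT (exact two-sided permutation test, p = 0.33, the smallest that 2 libraries against 2 can give). Atp2b2 and Atp2b3, the PMCA genes best known from brain, had at most 9 reads in any library.

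The 3 release channel genes differed in sign, and none passed the test. Itpr3, the main receptor gene here (chr17:27057304-27122223), had 17.7 and 22.3 FPKM in Calu-KO, against 20.9 and 19.3 FPKM in WT, and did not pass (log2 change -0.02 ± 0.15, interval -0.39 to 0.36, adjusted p = 0.953). Itpr1 (chr6:108213096-108551109), the type dominant in brain, had 3.24 and 5.07 FPKM in Calu-KO, against 2.87 and 2.55 FPKM in WT. Both Calu-KO libraries were higher, replicate 2 by far the more (log2 change 0.45 ± 0.21, interval -0.09 to 0.99, adjusted p = 0.253). Itpr2 (chr6:146108299-146502223), the type most sensitive to IP3, had 1.41 and 2.82 FPKM in Calu-KO, against 3.31 and 3.53 FPKM in WT. Both Calu-KO libraries were lower, this time replicate 1 by the more (log2 change -0.54 ± 0.25, interval -1.18 to 0.10, adjusted p = 0.250). The 2 Calu-KO libraries differed in Itpr2 by more than counting error, with exact 95% Poisson intervals of 1.27 to 1.57 and 2.60 to 3.05 FPKM.

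The balance of Itpr1 and Itpr2 within a library differed between the groups without overlap. The ratio of Itpr1 to Itpr2 was 2.29 and 1.80 in Calu-KO, against 0.870 and 0.721 in WT, per deposited length. Whether a ratio lies above 1 depends on the length used, but the difference between the groups does not. On the log2 scale the ratio was 1.02 ± 0.246 in Calu-KO and -0.34 ± 0.190 in WT (SD, n = 2 each), a difference of 1.36 (exact two-sided permutation test, p = 0.33, adjusted p = 0.667 over 10 family measures). Itpr1 was 14.5% and 16.8% of the summed IP3 receptor level in Calu-KO, against 10.6% and 10.02% in WT. Itpr2 was 6.34% and 9.35% in Calu-KO, against 12.2% and 13.9% in WT. The share of Itpr3 overlapped, at 79.2% and 73.8% in Calu-KO and 77.2% and 76.1% in WT, and the 3 receptor genes summed to 22.3 and 30.1 FPKM in Calu-KO and 27.0 and 25.4 FPKM in WT. Subunit shares and ratios within a family were planned measures, but the Itpr1 and Itpr2 pair was picked for its ratio after the values were seen. The ryanodine receptors, the release channels of muscle, had at most 11 reads of any gene in any library.

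**Figure D2:**
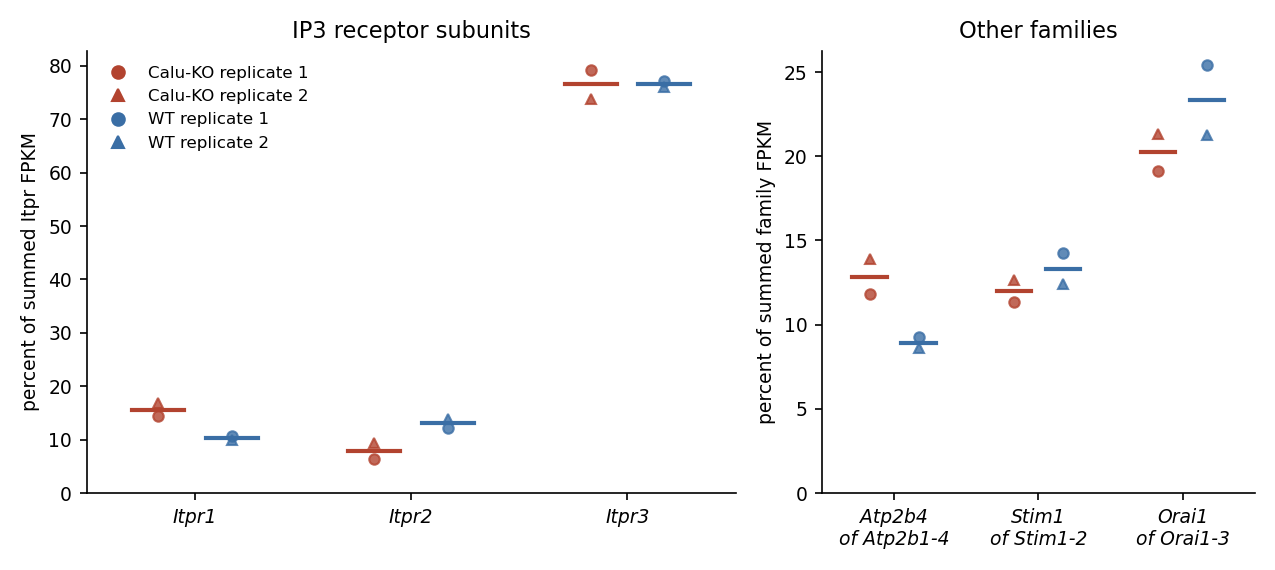
Percent of the summed family FPKM in each library, Calu-KO left of WT, with group means as bars. Itpr1 takes a higher and Itpr2 a lower share of the IP3 receptors in both Calu-KO libraries, Itpr3 overlaps near 77%, and the Orai1 and Stim1 shares overlap.

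None of the 3 refill genes passed the test, and the groups did not overlap for Stim2 and Orai1. Stim2, the sensor that responds to small falls in store calcium (chr5:53998499-54121057), had 17.98 and 22.5 FPKM in Calu-KO, against 14.6 and 15.99 FPKM in WT. Both Calu-KO libraries were higher (log2 change 0.38 ± 0.15, interval -0.00027 to 0.75, adjusted p = 0.202). Stim1, the sensor that drives the main influx after store depletion (chr7:102267806-102437319), had 2.30 and 3.26 FPKM in Calu-KO, against 2.42 and 2.26 FPKM in WT, and the groups overlapped (0.17 ± 0.18, adjusted p = 0.579). Orai1, the pore of the store-operated channel (chr5:123015074-123030456), had 3.74 and 3.79 FPKM in Calu-KO, against 5.38 and 4.41 FPKM in WT. These rest on the fewest reads of the 10 genes, 145 and 127 in Calu-KO and 202 and 168 in WT, and the log2 change of -0.30 ± 0.14 did not pass (adjusted p = 0.252). The summed STIM level stood at 20.3 and 25.8 FPKM in Calu-KO and 17.01 and 18.2 FPKM in WT. Its log2 ratio to Orai1 was 2.44 and 2.77 in Calu-KO, against 1.66 and 2.05 in WT (exact permutation p = 0.33). The paralog Orai2 was also lower in both Calu-KO libraries (5.29 and 7.23 FPKM, against 8.89 and 8.68 FPKM in WT; adjusted p = 0.186), while Orai3 overlapped (10.5 and 6.74 FPKM in Calu-KO, 6.88 and 7.65 FPKM in WT).

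**Figure D3:**
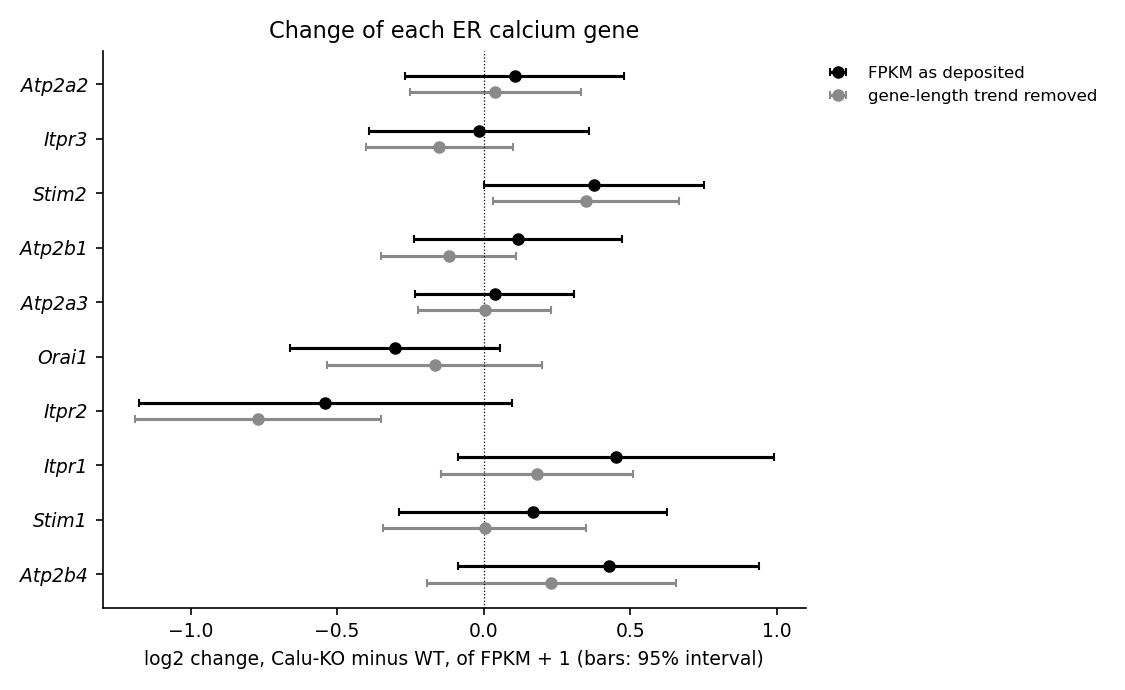
Log2 change of FPKM + 1, Calu-KO minus WT, with 95% intervals from limma, as deposited (black) and after the trend of each library on gene length was removed (grey). No gene passed the adjusted threshold in either fit, and with the trend removed the intervals of Itpr2 (below 0) and Stim2 (above 0) leave 0 out.

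The 10 genes are long, and gene length moved with the result. Their median length was 9680.5 bases, against 3885 bases over all tested genes. In FPKM as deposited, all 10 stood higher in Calu-KO replicate 2 than in Calu-KO replicate 1, by a median of 0.32 on the log2 scale, as did 52.5% of all tested genes. The size of this gap depends on the scale of the libraries. Scaling by total reads multiplied the FPKM of Calu-KO replicate 1 by 1.02 and of replicate 2 by 0.908. In reads, Atp2a3 had 1005 and 895 in Calu-KO replicates 1 and 2, and Orai1 had 145 and 127. Among all tested genes the median difference between these 2 libraries was -0.26 for lengths of 1000 to 2000 bases and 0.32 above 10000 bases, whereas the WT libraries differed by 0.01 and 0.0003. Relative to the WT mean, genes above 10000 bases had a median of 0.07 in Calu-KO replicate 1 and 0.38 in replicate 2. With the length trend taken out of each library, a step chosen after the data were seen, the 10 genes had a median log2 change of 0.0032, against 0.0034 over all tested genes. Itpr1 then stood at 0.18, Atp2b4 at 0.23, Orai1 at -0.17 and Stim2 at 0.35, and Atp2b1, at 0.12 as deposited, stood at -0.12. Itpr2, at 14802 bases one of the longest, went against the trend: its log2 change was -0.77 (interval -1.19 to -0.35, adjusted p = 0.0637). None of the 10 passed in that fit, where 5.39% of all tested genes did, or with the trend on GC content removed as well, where 4.39% did. Itpr1 less Itpr2 was 0.95 there, against 0.99 as deposited, both as log2 changes of FPKM + 1. Over 16 fits this difference ran from 0.49, with 5 FPKM added before the logarithm, to 1.38, with voom.

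**Figure D4:**
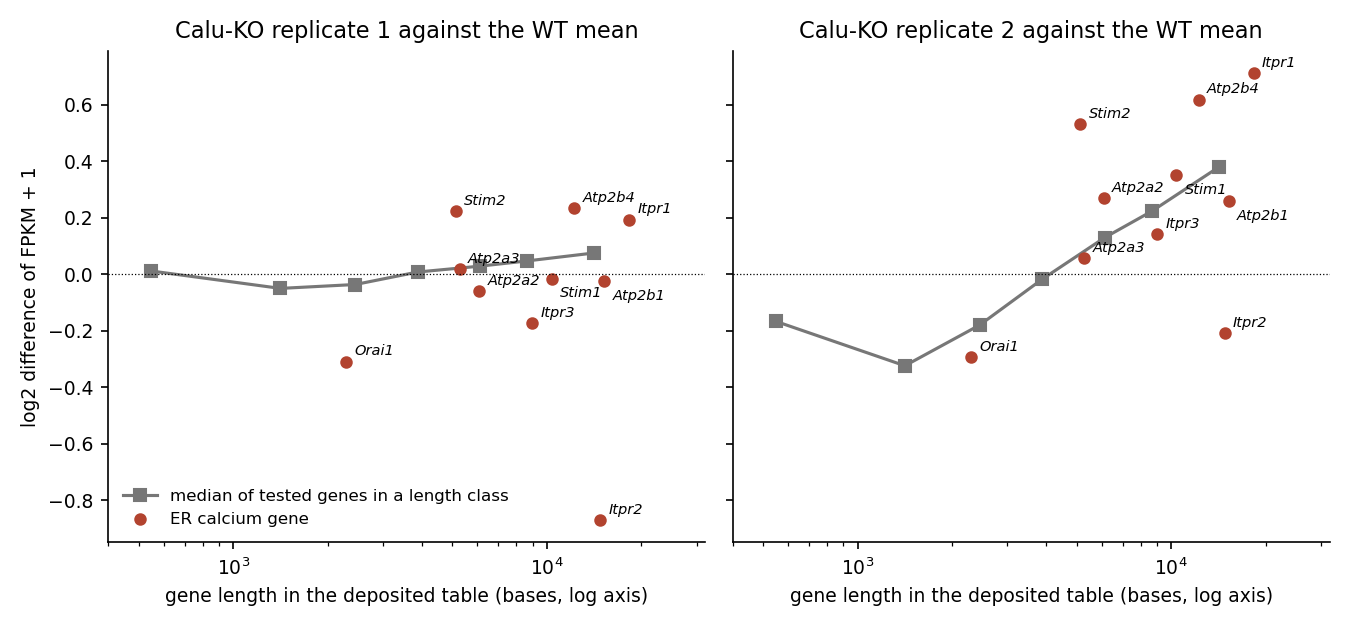
Log2 difference of FPKM + 1 from the WT mean against gene length (log axis), for Calu-KO replicate 1 (left) and replicate 2 (right). Grey squares join the medians of tested genes in 7 length classes, which are lowest between 1000 and 2000 bases and climb above that to 0.38 in replicate 2 and 0.07 in replicate 1. Red points are the 10 genes, of which Itpr2 lies far below the line in both.

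Some of the 10 genes passed when 1 Calu-KO library was left out. Without Calu-KO replicate 1, 5 of the 10 genes passed, all higher in Calu-KO: Atp2a2 (log2 change 0.27), Atp2b1 (0.26), Atp2b4 (0.62), Itpr1 (0.71) and Stim2 (0.53), where 48.2% of all tested genes passed in either direction and 24.6% passed as higher in Calu-KO. Without Calu-KO replicate 2 only Itpr2 passed (-0.87, adjusted p = 0.0264), where 17.3% did in either direction and 9.51% as lower in Calu-KO. In these fits the spread comes from the WT pair alone and the lone Calu-KO library is assumed to vary like it.

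Proximal promoters are shown for Itpr2, Stim2 and Orai1, genes whose groups did not overlap and whose RefSeq start lies within 24 bases of the gene's edge in the deposited table. Each line gives 100 bases, from 130 to 31 before the RefSeq start (GRCm38.p6), on the gene's strand, with matches to the CCAAT box (CCAAT) and the GC box (GGGCGG), read on both strands, in capitals.
Itpr2: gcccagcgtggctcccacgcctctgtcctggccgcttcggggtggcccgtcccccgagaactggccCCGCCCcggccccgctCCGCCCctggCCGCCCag
Stim2: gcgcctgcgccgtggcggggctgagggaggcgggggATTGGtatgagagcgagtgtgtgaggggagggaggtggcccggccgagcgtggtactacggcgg
Orai1: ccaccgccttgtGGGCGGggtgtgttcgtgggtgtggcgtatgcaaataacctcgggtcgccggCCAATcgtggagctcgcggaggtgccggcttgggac
They come from chr6:146502254-146502353 (minus strand), chr5:53998393-53998492 and chr5:123014944-123015043 (plus strand). Within these 100 bases Itpr2 has 3 GC boxes, Stim2 has 1 CCAAT box and Orai1 has 1 of each. Over the whole RefSeq promoter of 300 bases all 3 genes hold both boxes. Atp2b4, whose groups did not overlap either, holds neither. Of 8 matched genes among the 10, with 9 promoters, 3 hold a CCAAT box and 7 a GC box in that window. The 3 with a CCAAT box are the 3 genes shown, of which Stim2 was higher and Itpr2 and Orai1 lower in Calu-KO. Itpr1, whose groups also did not overlap, was not matched to a promoter. Whether the boxes go with the changes was not tested. Counted per promoter rather than per gene, 37.4% and 35.7% of 32851 promoters hold these boxes.

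Other calcium pathway genes were counted from lists chosen with earlier results of these data known. Over all of these lists 95 genes were tested, and 0 rose and 2 fell, against 0.942% and 1.83% of all tested genes. The 2 were Calu, the gene of the genotype label itself, and Bok. The 95 genes had a median log2 change of -0.04. For each list the median is given as deposited and then with the length trend removed. Bok, a BCL-2 family protein known to bind IP3 receptors, had 8.55 and 6.51 FPKM in Calu-KO, against 23.9 and 25.03 FPKM in WT. It fell 3.25-fold (log2 change -1.59 ± 0.15, adjusted p = 0.0266), and the call was lost without WT replicate 1 (adjusted p = 0.0774) or WT replicate 2 (0.0832). Among the other 12 tested genes of IP3 receptor regulation none passed as deposited (median of the list with Bok -0.01, then 0.0039). Erlin1, lower in both Calu-KO libraries than in either WT library, passed with voom, where 6.98% of all tested genes did. The 2 most abundant of this list were Hspa9, a mitochondrial chaperone found at ER contacts (log2 change 0.03, adjusted p = 0.921), and Ahcyl1, which competes with IP3 at the receptor (-0.02, adjusted p = 0.943).

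Of 4 tested genes of other pumps and exchangers none passed (median 0.02, then -0.06). Tmem165, a Golgi ion transporter, had a log2 change of 0.12 (adjusted p = 0.525). The Golgi calcium pump gene Atp2c1 had 10.1 and 10.02 FPKM in Calu-KO, against 8.56 and 9.16 FPKM in WT. Slc8a1, the sodium-calcium exchanger NCX1, was too low for the test and was picked out after its values were seen. It had 0 reads in both Calu-KO libraries, against 51 and 47 reads in WT, and was at least 31.2-fold lower in Calu-KO when its floor is set at 3 reads over the group. Of 9 tested ER release and leak genes none passed (median -0.07, then -0.15), among them Tmbim6, an ER calcium leak protein (89.8 and 95 FPKM in Calu-KO, 114 and 114 FPKM in WT, adjusted p = 0.174), and Fkbp1a (-0.20, adjusted p = 0.443). Of 11 tested genes of store-operated entry none passed (median -0.0011, then 0.06), with Ubqln1 at 0.28 and Esyt2, an ER to plasma membrane tether, at 0.45 (adjusted p = 0.245 and 0.139). Of 10 genes that make or remove IP3 none passed (median 0.14, then 0.06; 8 of 10 positive as deposited). Plcb3, a phospholipase C, stood at -0.04 and the G protein gene Gnaq at 0.18 (adjusted p = 0.822 and 0.559).

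Of 17 tested calcium buffers of the ER lumen 1 fell, Calu, and none rose, as deposited. The 17 genes, Calu among them, had a median log2 change of -0.25 (-0.14 with the length trend removed) and 14 were negative. The 10 pump, channel and sensor genes had medians of 0.11 and 0.0032 and 3 negative, and this difference was not tested. Rcn3 was higher in both Calu-KO libraries (20.4 and 14.1 FPKM, against 9.89 and 10.6 FPKM in WT, adjusted p = 0.130, limma). Rcn3 passed with the length trend removed, where 5.39% of all tested genes did. Rcn3 and Selenok passed with the GC trend removed as well, where 4.39% did. Nucb1 and Selenok passed with voom, where 6.98% did. Unlike Rcn3, these 2 genes were lower in both Calu-KO libraries. Selenok had 18.5 and 14.1 FPKM in Calu-KO, against 26.0 and 29.3 FPKM in WT. Nucb1 had 28.3 and 21.7 FPKM in Calu-KO, against 44.8 and 44.3 FPKM in WT. Hspa5, the chaperone BiP, had 506 and 603 FPKM in Calu-KO, against 819 and 830 FPKM in WT (adjusted p = 0.105). Hsp90b1, the chaperone GRP94, overlapped (462 and 547 FPKM in Calu-KO, 539 and 574 FPKM in WT). Calr, the main soluble calcium buffer, had 383 and 349 FPKM in Calu-KO, against 499.8 and 492 FPKM in WT (adjusted p = 0.126). The SERCA regulator list, which shares Calr and Canx with the buffers, had 6 tested genes and none passed (median -0.09 in both fits); its classic muscle members Pln and Sln had at most 2 reads in any library. Canx stood at 283 and 366 FPKM in Calu-KO and 290 and 303 FPKM in WT.

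The ER stress element, CCAAT and CCACG with 9 bases of any kind between them, is a promoter site through which ATF6 and XBP1 raise ER chaperones. It was searched on both strands of the RefSeq promoters, and every match also holds a CCAAT box. It was found in 0.119% of 32851 promoters, in 5 of 18 matched buffer genes, and in 0 of 8 matched genes of the pumps, channels and sensors (Atp2a2 and Itpr1 were not matched). With so rare a site, 0 of 8 does not set the pump, channel and sensor genes apart from other genes. The buffer list includes ER chaperones, the genes this site is known to serve, so its count is no independent result. The sites are shown on the strand that carries the motif. Capitals mark the fixed bases.
Hspa5: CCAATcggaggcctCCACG
Calr: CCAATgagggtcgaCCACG
Hsp90b1, farther site: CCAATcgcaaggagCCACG
Hsp90b1, nearer site: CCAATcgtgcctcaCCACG
Canx: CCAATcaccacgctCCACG
Pdia6: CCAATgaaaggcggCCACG
In this order they lie at chr2:34772025-34772043 (plus strand), chr8:84847075-84847093 (plus), chr10:86705638-86705656 (minus), chr10:86705533-86705551 (plus), chr11:50325800-50325818 (minus) and chr12:17266491-17266509 (plus), in GRCm38.p6. The Hspa5 site spans 65 to 47 bases before the RefSeq start. Pdia6, a disulfide isomerase, had 194 and 155 FPKM in Calu-KO, against 270 and 278 FPKM in WT, and did not pass.

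**Figure D5:**
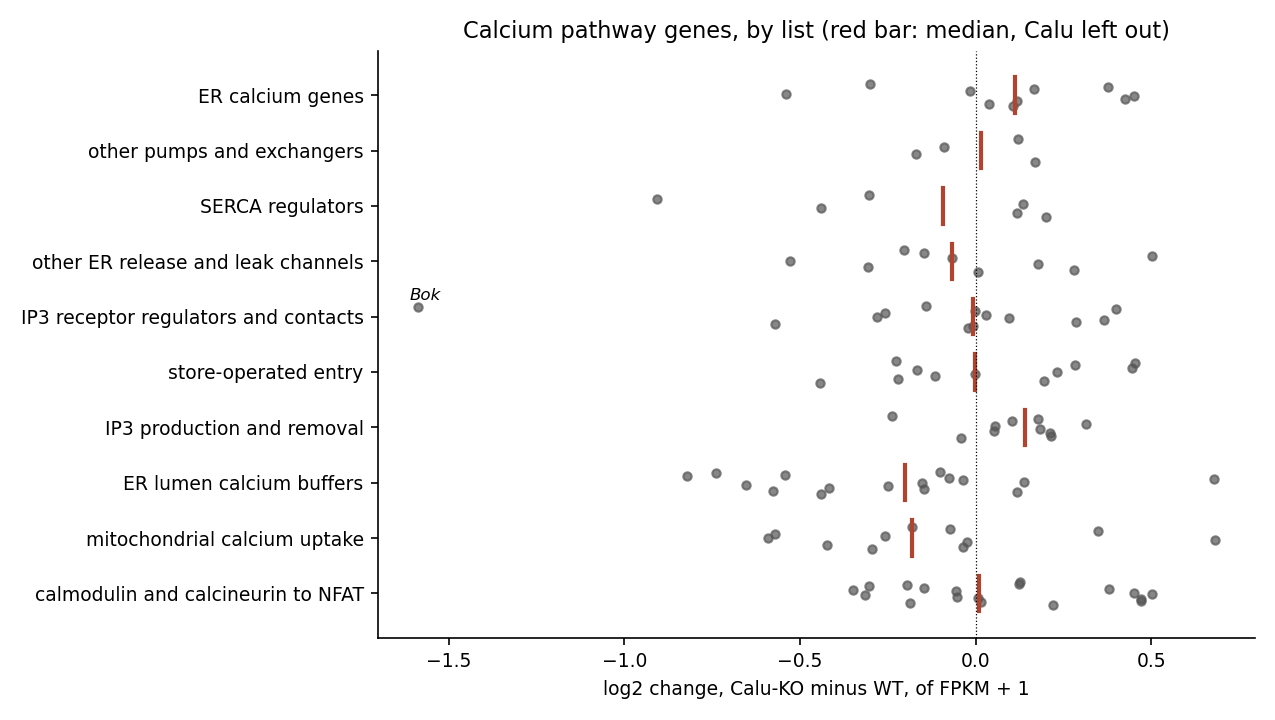
Log2 change of FPKM + 1, Calu-KO minus WT, of the tested genes in each calcium list, with the list median in red and Calu left out. Bok alone is past the threshold among the genes drawn, and the ER lumen buffers and the mitochondrial uptake genes lie mostly below 0.

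Downstream of the store, 11 genes of mitochondrial calcium uptake were tested and none passed as deposited (median -0.18, then -0.15, with 9 negative as deposited). Vdac2 passed with the length trend removed, with the GC trend removed as well and with voom, and Micu3 passed with voom. In these fits 5.39%, 4.39% and 6.98% of all tested genes passed. Micu3 was higher in both Calu-KO libraries (4.71 and 5.49 FPKM, against 2.55 and 3.06 FPKM in WT), and Vdac2 was lower. The outer membrane channel gene Vdac1, which meets IP3 receptors at ER contacts, had 114 and 114 FPKM in Calu-KO, against 132 and 142 FPKM in WT (adjusted p = 0.225), and Vdac2 had 38.7 and 36.2 FPKM in Calu-KO, against 54.7 and 57.4 FPKM in WT (adjusted p = 0.0715). Of 18 genes from calmodulin and calcineurin to NFAT none passed (median 0.01, then 0.04). The calmodulin gene Calm2 had 264 and 181 FPKM in Calu-KO, against 239 and 261 FPKM in WT, and Calm3 had 145 and 152 FPKM in Calu-KO, against 146 and 148 FPKM in WT. Across these lists 27 of the 95 genes were higher and 37 lower with no overlap of the groups, against 32% and 29.7% of all tested genes.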

How the data were processed

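The authors deposited 1 table of FPKM values for 54532 genes, 1 column per library, with gene lengths. HISAT2 2.0.5 was the aligner, per the labels' protocols, and mm10 the build, per the submitters' processing notes; the sources used here do not give the counter, annotation or use of strand. Multiplying FPKM by gene length and dividing by the step of 1 read in each library gave whole reads for 100% of values (tolerance 0.001 reads). Replicates differed by more than counting error (median chi-square per gene 9.23 in Calu-KO and 1.22 in WT), and each library was kept. The 11885 genes that averaged 1 FPKM or more entered the test, on log2(FPKM + 1), where changes of low genes come out too small, with limma 3.58.1 in R 4.3.3 (intensity-trended eBayes, two-sided, Benjamini-Hochberg over 11885 genes, threshold 0.05). Family shares were compared by exact permutation over libraries. The fit was tested on simulated data. Trends on gene length and GC content were removed by loess (span 0.3). The members and lists were chosen with earlier results of these data known. The rule for named genes took the 10 genes, Calu, and from each list those past the threshold and the 2 most abundant; others named were chosen after their values were seen. Other genes that overlap the 10 had at most 9 reads each over all libraries. Intervals and floors cover counting error only.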

Additional observations from a re-analysis of the deposited data

How the results depend on the processing

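Over 16 alternatives (15 for genes under 5 FPKM on average) the log2 changes of Stim2 (0.22 to 0.53), Itpr1 (0.18 to 0.71), Atp2b4 (0.16 to 0.70), Itpr2 (-0.87 to -0.21) and Orai1 (-0.42 to -0.036) kept their sign. Those of the other 5 genes did not: scaled by total reads, Atp2a2 was at -0.0026 and Atp2a3 at -0.062; with 1 library left out, Atp2a2 ran from -0.059 to 0.27, Atp2b1 from -0.025 to 0.26, Stim1 from -0.016 to 0.35 and Itpr3 from -0.17 to 0.14, the low ends without Calu-KO replicate 2 and the high ends without Calu-KO replicate 1; and Atp2b1 was at -0.12 with the length trend removed and -0.21 with length and GC trends removed. The number of the 10 genes past the threshold ran from 0 to 5 with 1 library left out and was 0 otherwise. The 112 higher and 217 lower genes of the series became 0 and 0 with no filter on low values (3886 at an unadjusted p under 0.05, limma), 361 and 469 with voom, 266 and 375 with the length trend removed, 207 and 315 with both trends removed, and ran from 8 to 2926 and from 34 to 2805 with 1 library left out; the cause was not tested. Scaling by total reads, which moved the median of all tested genes by -0.09, gave 45 higher genes (22.8% of calls, against 34.04%), and a filter of 5 FPKM gave 130 lower genes. Of the other calcium genes 2 passed, 0 with no filter, 7 with voom, 4 with the length trend removed, 5 with both trends removed and 1 to 50 with 1 library left out. The call on Bok was lost with no filter and without either WT library, and that on Calu with no filter (adjusted p = 0.0797). As reads rather than per length, the Calu-KO minus WT difference in share was 8.61 points for Itpr1, -7.43 for Itpr2 and -0.73 for Orai1. With the replicate number as a block 181 genes were higher and 312 lower and 0 of the 10 genes passed; deviations of same-numbered libraries correlated at 0.0153, so the numbers are not known to pair the libraries. Without Calu-KO replicate 1, Calu-KO replicate 2, WT replicate 1 and WT replicate 2 in turn, 2926, 922, 10 and 8 genes were higher. With 2 libraries a group, the intervals of the 10 genes spanned 0.54 to 1.27 on the log2 scale, which limits what could be detected.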
